A study of Mus musculus with 6 samples.

Results

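The nuclear-encoded subunits of the respiratory chain and of ATP synthase were followed in RNA sequencing of 6 mouse tumors. The members are all protein-coding genes whose symbol in the GENCODE M21 annotation begins with Ndufa, Ndufb, Ndufc, Ndufs, Ndufv, Uqcr, Cox4i, Cox5, Cox6, Cox7, Cox8 or Atp5, with Sdha, Sdhb, Sdhc, Sdhd and Cyc1 added. This gave 92 of the 23508 genes in the count table, and all 92 passed the filter on low counts, which left 16755 genes to test. By role, 76 were structural subunits used in most tissues, 3 were muscle isoforms of complex IV, 4 were other tissue-restricted isoforms or relatives of complex IV subunits, and 9 were assembly factors or related proteins that only share the symbol. The tumors were grown from 4T1, a mammary carcinoma line of the mouse that serves to model triple-negative breast cancer. The with-peak group holds 3 tumors taken on the day when the first peak of neural activity was recorded, and the before-peak group holds 3 tumors taken ahead of it; the series title links that activity to the sympathetic nervous system. No genotype, drug or age is given for either group, both carry the same line, and nothing in the labels ties the tumors to separate animals, so the p-values reflect the spread among these 6 samples alone, which may be technical. Total counts were between 10591067 and 14549357 per tumor.

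Complexes I, III and IV pass electrons from NADH to oxygen and pump protons across the inner mitochondrial membrane, complex II feeds electrons in from succinate, and complex V uses the proton gradient to make ATP. Most subunits are encoded in the nucleus and imported, while a core set is made from mitochondrial DNA, so both genomes have to supply each complex except complex II. Some small complex IV subunits have isoforms of heart and skeletal muscle (Cox6a2, Cox7a1 and Cox8b) that take the place of Cox6a1, Cox7a2 and Cox8a.

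The tumors differed in more than the members. The keratin gene Krt8, a marker of the carcinoma cells, had 1254, 1059 and 1716 CPM (counts scaled to library size, here by the TMM method) in with-peak tumors, against 1676, 1552 and 1397 CPM in before-peak tumors, so the epithelial label holds in all 6. A list of 28 skeletal muscle genes summed to between 781 and 2598 CPM in with-peak tumors and between 461 and 927 CPM in before-peak tumors, with with-peak replicates 2 and 3 far above the other 4 tumors. A list of 14 macrophage genes had median deviations from the mean over the 6 tumors of 0.24, 0.67 and 0.22 (log2 CPM) in with-peak tumors, against -0.15, -0.48 and -0.45 in before-peak tumors, and summed to between 4553 and 6469 CPM in with-peak tumors and between 2525 and 3798 CPM in before-peak tumors. With-peak replicate 2 was also the tumor in which 63 of the 92 members (68.5%) were highest, against 21.3% of all genes tested, and 12 of the 14 macrophage genes were highest there too. Values of the members without with-peak replicate 2 or 3 are given where these decide a result. In bulk tissue, fewer cells of a type and less RNA per cell cannot be told apart.

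Most subunits were slightly more abundant in with-peak tumors, and none passed the test one by one. Macrophage genes differed in the same direction (14 of 14 positive, median log2 fold change 0.77), and their part in the subunit values was not tested. Of the 76 widely used structural subunits, 72 had a positive log2 fold change (with-peak over before-peak), with a median of 0.18, a 1.13-fold difference. Over all genes tested, 47.7% were positive and the median was -0.02. Added up, these 76 genes took 9413, 11120 and 10500 CPM in with-peak tumors (mean 10344 ± 864, SD, n = 3), against 9995, 8874 and 9001 CPM in before-peak tumors (mean 9290 ± 614, SD, n = 3). The sums overlap, because with-peak replicate 1 lies below before-peak replicate 1. By edgeR's quasi-likelihood test with Benjamini-Hochberg adjustment over all genes, 0 members had an adjusted p under 0.05, and 0% of all genes tested passed in either direction. The lowest adjusted p of a member was 0.197, for Ndufa4l2. Without adjustment, 17 of the 92 members were higher at a p under 0.05 and 0 were lower, where 6.12% of all genes were higher and 3.38% lower. Leaving out with-peak replicate 2 or 3 reduced the 17 to 8 and 6 in that order. Leaving out before-peak replicate 2 or 3 reduced them to 10 and 5. The share of all genes at such a p is not given for these settings. Whether the members still exceeded it cannot be read from these counts. DESeq2 called 2 members higher at an adjusted p under 0.05, Cox6a2 and Ndufa4l2, beside 1.24% of all genes higher and 0.119% lower. The groups did not overlap, with with-peak tumors higher, for 19 members, against 8.13% of all genes, and with with-peak tumors lower for 1 member, Ndufs1, against 7.38% of all genes.

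The small shift was uneven over the tumors. Measured as the median deviation of the 76 subunits from each gene's mean over the 6 tumors (log2 CPM), it was -0.06, 0.24 and 0.08 in with-peak tumors, against 0.03, -0.13 and -0.17 in before-peak tumors. With-peak replicate 1 thus sits below before-peak replicate 1. Leaving out with-peak replicate 2 lowered the median log2 fold change to 0.09 with 54 of 76 positive, and with with-peak replicate 1 alone against the 3 before-peak tumors it was 0.01 with 39 positive. Scaling by library size alone gave a median of 0.12 with 62 positive, while the median of all genes was then -0.07.

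**Figure D1:**
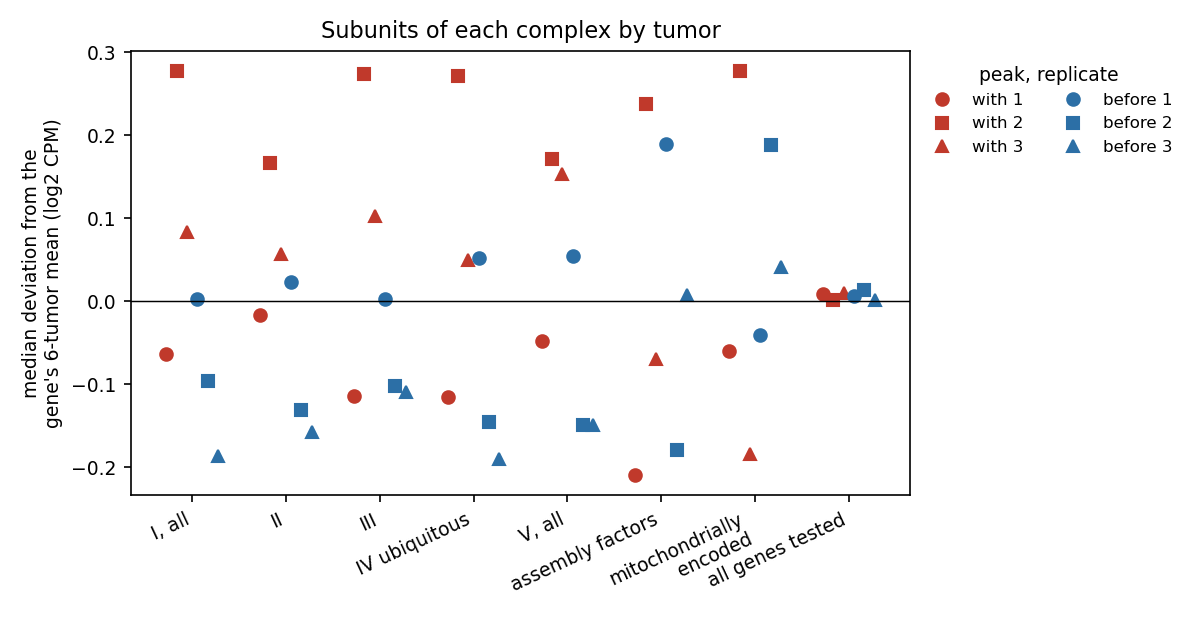
Median deviation of the subunits of each complex from each gene's mean over the 6 tumors (vertical axis, log2 CPM), with 1 mark per tumor and the with-peak tumors left of the before-peak tumors in each complex. The same is shown for the assembly factors, the mitochondrially encoded subunits and all genes tested. In complex I, with-peak replicate 2 is highest at 0.28 and before-peak replicate 3 lowest at -0.19, and with-peak replicate 1 lies at -0.06.

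Complex I, which oxidises NADH, had 36 structural members. Of these, 34 were positive with a median log2 fold change of 0.19. Together they took 2602 ± 271 CPM in with-peak tumors and 2282 ± 146 CPM in before-peak tumors (SD, n = 3 each). Without with-peak replicate 2 the median was 0.11. The supernumerary subunits, which surround the catalytic core and are needed to build and stabilise the complex, were positive for 28 of 29 (median 0.20), and the core subunits, which carry the flavin and iron-sulfur centres, for 6 of 7 (median 0.16). Ndufb11, a small subunit of the membrane arm, had 111.5, 116.6 and 119.9 CPM in with-peak tumors, against 95.6, 89.2 and 93.0 CPM in before-peak tumors. All 3 with-peak tumors lie above all 3 before-peak tumors and the replicates of each group sit close together (log2 fold change 0.32 ± 0.10, SE; edgeR adjusted p = 0.388). Ndufb11 shares 12.9% of its exon bases with Rbm10 on the opposite strand, so in libraries without strand marking a part of its counts is uncertain. Ndufb8, another membrane-arm subunit, had 53.8, 65.0 and 80.9 CPM in with-peak tumors, against 51.1, 46.7 and 45.5 CPM in before-peak tumors. Its with-peak values spread widely, and the lowest of them is just above the highest before-peak value (log2 fold change 0.48 ± 0.16, SE; edgeR adjusted p = 0.397). Ndufb10, Ndufa13, Ndufv3, Ndufc2 and Ndufa7 also had an unadjusted p under 0.05, with log2 fold changes between 0.30 and 0.35. Ndufa13 shares 30.0% of its exon bases with Tssk6 on the opposite strand, so its counts are uncertain as well.

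In the complex I core, Ndufv2, an iron-sulfur subunit of the NADH-oxidising arm, had 118.5, 140.5 and 130.7 CPM in with-peak tumors, against 117.9, 106.6 and 102.1 CPM in before-peak tumors. The groups do not overlap, but with-peak replicate 1 and before-peak replicate 1 are almost equal (log2 fold change 0.25 ± 0.11, SE; edgeR adjusted p = 0.525). Ndufs3, another core subunit of this arm, was also positive, with overlapping groups (log2 fold change 0.17). Ndufs1, the large iron-sulfur subunit of the same arm, went the other way, with 57.9, 72.7 and 73.9 CPM in with-peak tumors, against 81.0, 75.6 and 76.2 CPM in before-peak tumors. Its gap between the groups is small beside the spread of the with-peak tumors (log2 fold change -0.19 ± 0.13, SE; edgeR adjusted p = 0.688). Per kilobase of the principal transcript, Ndufa7 and Ndufa2 had the highest level of the complex I members, at 195 and 146 CPM per kb over the 6 tumors, and both were positive with overlapping groups. Ndufb2 had the lowest, at 0.974 CPM per kb, with 3.72, 4.07 and 4.17 CPM in with-peak tumors and 5.14, 4.93 and 3.5 CPM in before-peak tumors, and 5.37% of its exon bases are shared with genes on the opposite strand. Its principal transcript was taken at 4371 bases, the longest of the complex I members, which lowers the value per kb. Whether its few counts reflect low expression was not tested.

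Complex II, the succinate dehydrogenase of the citric acid cycle, is wholly nuclear-encoded, and its 4 subunits differed among themselves around a median log2 fold change of 0.12, which was 0.058 without with-peak replicate 2. Sdhb, the iron-sulfur subunit, had 124.8, 131.8 and 128.1 CPM in with-peak tumors, against 117.0, 88.3 and 101.0 CPM in before-peak tumors. The with-peak tumors are tightly grouped above the before-peak tumors (log2 fold change 0.33 ± 0.12, SE; edgeR adjusted p = 0.460). Sdhd, a membrane anchor, had 109.6, 132.4 and 124.1 CPM in with-peak tumors, against 113.8, 100.6 and 101.4 CPM in before-peak tumors, where replicate 1 of the before-peak group is above replicate 1 of the with-peak group (log2 fold change 0.21). The other anchor, Sdhc, had 118.3, 126.4 and 110.2 CPM in with-peak tumors and 123.3, 121.5 and 105.0 CPM in before-peak tumors. Sdha, the flavoprotein that oxidises succinate, had 157.9, 184.3 and 166.7 CPM in with-peak tumors and 162.1, 158.4 and 186.6 CPM in before-peak tumors. For both of these the ranges of the groups largely coincide, with log2 fold changes of 0.02 ± 0.11 for Sdhc and 0.0047 ± 0.12 for Sdha (SE), and scaling by library size alone turned both slightly negative.

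Complex III moves electrons from ubiquinol to cytochrome c. Of its 9 members, 8 were positive, with a median log2 fold change of 0.18. Uqcrh, the acidic hinge protein that helps cytochrome c1 meet cytochrome c, had 156.8, 170.2 and 137.0 CPM in with-peak tumors, against 133.7, 131.1 and 121.1 CPM in before-peak tumors. The groups do not overlap, with with-peak replicate 3 just above the before-peak range (log2 fold change 0.27 ± 0.12, SE; edgeR adjusted p = 0.523). Uqcrq, a small subunit next to cytochrome b, had the largest log2 fold change of the complex, 0.39 ± 0.18 (SE), with overlapping groups at 122.7, 183.6 and 152.1 CPM in with-peak tumors and 137.6, 95.9 and 117.5 CPM in before-peak tumors. Uqcrc1, a core protein that faces the matrix, had a log2 fold change of -0.03. Uqcrh and Uqcr11 had the highest levels per length of the complex, at 259 and 249 CPM per kb. Leaving out with-peak replicate 2 lowered the median of the complex to 0.07.

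Complex IV reduces oxygen. Of its 11 widely used nuclear subunits 10 were positive, with a median log2 fold change of 0.16, which was 0.02 without with-peak replicate 2, 0.08 without before-peak replicate 3, and 0.25 to 0.27 without with-peak replicate 1, with-peak replicate 3 or before-peak replicate 1. Cox5b, a zinc-binding subunit on the matrix side, had 150.7, 192.8 and 182.4 CPM in with-peak tumors, against 144.9, 141.6 and 135.6 CPM in before-peak tumors. The before-peak tumors are close together and below all with-peak tumors (log2 fold change 0.32 ± 0.12, SE; edgeR adjusted p = 0.466). Cox7b, a small transmembrane subunit, had 108.2, 155.0 and 113.3 CPM in with-peak tumors, against 101.3, 96.2 and 97.5 CPM in before-peak tumors, with replicate 2 of the with-peak group well above its other replicates (log2 fold change 0.35 ± 0.15, SE; edgeR adjusted p = 0.505). Cox4i1, the largest nuclear subunit of the complex, had 584.4, 579.7 and 651.2 CPM in with-peak tumors, against 565.4, 429.9 and 475.5 CPM in before-peak tumors (log2 fold change 0.30 ± 0.13, SE; edgeR adjusted p = 0.507). Its groups do not overlap, and it had the highest level per length of all 92 members, 716 CPM per kb, of which 9.94% of exon bases are shared with another gene. Cox7c was the 4th of these subunits whose groups did not overlap. Ndufa4, first described in complex I and now counted in complex IV, was the only negative subunit here, with 100.9, 144.9 and 151.5 CPM in with-peak tumors and 187.2, 124.6 and 149.1 CPM in before-peak tumors. Its groups overlap widely (log2 fold change -0.21 ± 0.19, SE).

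Complex V, the ATP synthase, had 16 members, all with a positive log2 fold change, from 0.003 to 0.47. Their median was 0.16. Leaving out 1 tumor in turn gave a median of 0.12 to 0.25, with 0.25 without before-peak replicate 1. The catalytic subunits stood at the low end. Atp5b, the beta subunit that holds the active site, had 910.3, 933.0 and 1076 CPM in with-peak tumors and 990.4, 918.4 and 1001 CPM in before-peak tumors, and Atp5a1, the alpha subunit, had 532.6, 559.7 and 569.1 CPM in with-peak tumors and 574.3, 496.0 and 587.6 CPM in before-peak tumors. In both the groups overlap almost fully, and Atp5b turned negative (-0.05) when libraries were scaled by size alone. Several other subunits stood higher. Atp5l, the g subunit of the membrane part, had 141.1, 129.8 and 143.6 CPM in with-peak tumors, against 119.0, 102.9 and 95.7 CPM in before-peak tumors. All with-peak tumors lie above all before-peak tumors, of which replicate 1 comes nearest (log2 fold change 0.38 ± 0.12, SE, edgeR adjusted p = 0.384). Atp5l shares 2.06% of its exon bases with Gm30934 on the opposite strand, which was also higher in with-peak tumors (log2 fold change 0.30). Atp5c1, the gamma subunit whose rotation drives catalysis, had 260.4, 236.3 and 283.4 CPM in with-peak tumors, against 232.9, 207.6 and 208.1 CPM in before-peak tumors, again without overlap (log2 fold change 0.27 ± 0.11, SE; edgeR adjusted p = 0.517). Atp5e, the epsilon subunit of the central stalk, had 212.1, 270.0 and 238.1 CPM in with-peak tumors and 217.9, 131.1 and 170.6 CPM in before-peak tumors, where before-peak replicate 1 exceeds with-peak replicate 1 (log2 fold change 0.47 ± 0.18, SE; edgeR adjusted p = 0.474). Atp5j2, the f subunit of the membrane part, was positive with overlapping groups (log2 fold change 0.25 ± 0.15, SE). Atp5o, which joins the head to the peripheral stalk, is uncertain because 35.6% of its exon bases overlap genes on the opposite strand.

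**Figure D2:**
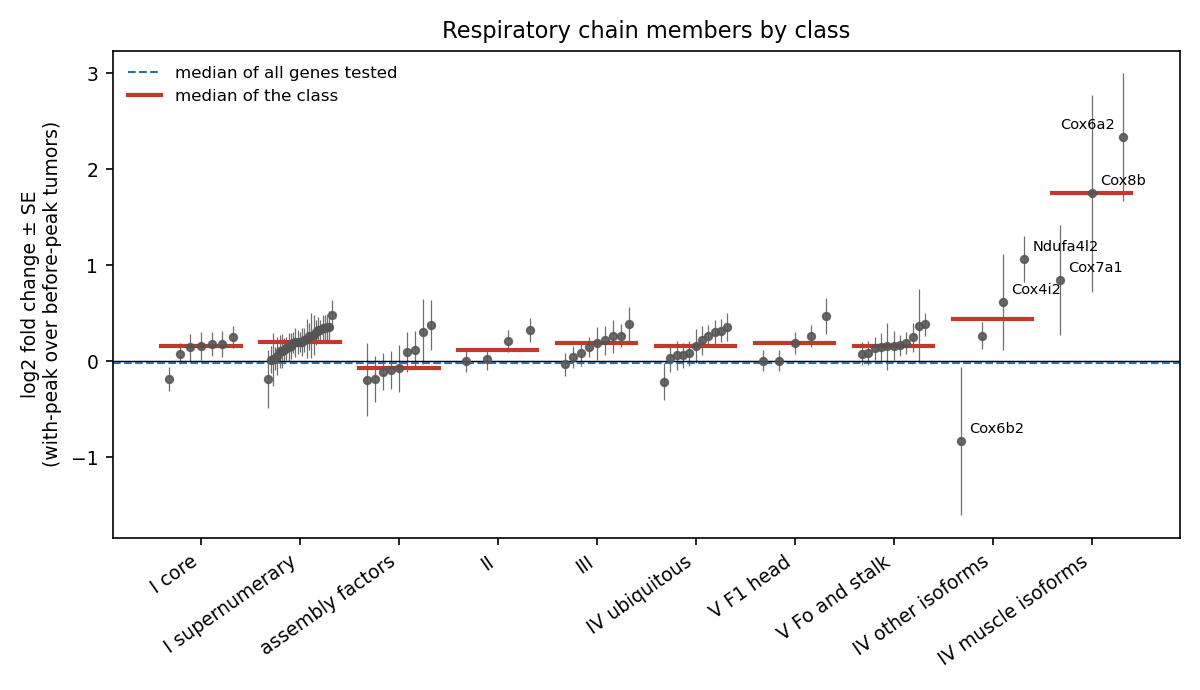
Log2 fold change of each of the 92 members (with-peak over before-peak tumors, points with SE) by class, with the median of each class as a bar and the median of all 16755 genes tested as a dashed line. The classes of widely used subunits have medians between 0.12 and 0.20, the assembly factors -0.07 and the 3 muscle isoforms of complex IV 1.75.

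The 9 genes that share a symbol without being subunits had no common direction. Of these assembly factors and relatives, 4 were positive and 5 negative, with a median log2 fold change of -0.07. Ndufaf5, a complex I assembly factor, had the smallest p among them, with 8.28, 11.9 and 13.1 CPM in with-peak tumors and 9.95, 8.46 and 7.17 CPM in before-peak tumors (log2 fold change 0.38 ± 0.26, SE). Its groups overlap. The groups also overlapped for Atp5s (log2 fold change 0.31 ± 0.34, SE), Ndufaf8 (-0.11 ± 0.19) and Ndufaf3 (-0.18 ± 0.24), of which the Ndufaf genes are complex I assembly factors.

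Subunit transcripts are short, and short transcripts in general were higher in with-peak tumors. The principal transcript of the 76 subunits had a median length of 863 bases, against 2973 bases over all genes tested. Under 1000 bases, the 44 subunits had a median log2 fold change of 0.20 and 97.7% were positive, while 313 other genes of that length with a mean log2 CPM above 5 had a median of 0.18 and 81.5% were positive. An unadjusted p under 0.05 in the higher direction was found for 22.7% of these subunits and 22.4% of these other genes. From 1000 to under 1500 bases the medians were 0.18 for 13 subunits and 0.10 for 476 other genes. From 1500 to under 2500 bases they were 0.15 for 13 subunits and 0.01 for 1303 other genes. At 5000 bases and over, where there is no subunit, 1531 other genes had a median of -0.10. The other short genes also had their highest median deviation in with-peak replicate 2, at 0.16, against 0.30 for the short subunits. Without with-peak replicate 2, the medians under 1000 bases were 0.07 for subunits and 0.12 for other genes. The part of transcript length in the shift of the subunits was not tested.

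**Figure D3:**
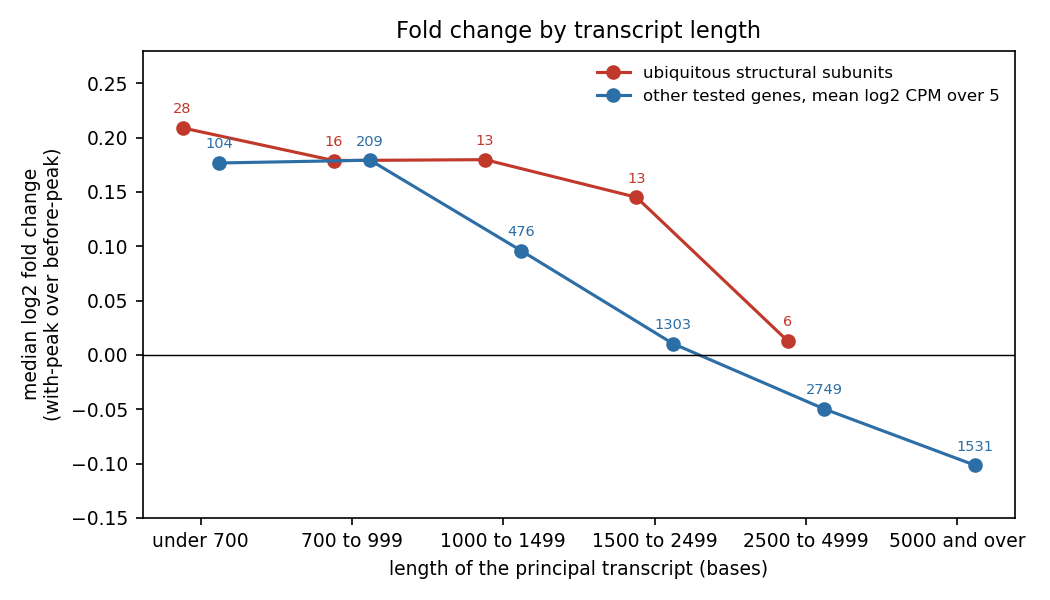
Median log2 fold change (with-peak over before-peak tumors, vertical axis) by length of the principal transcript in bases (horizontal axis), for the 76 widely used subunits and for other tested genes with a mean log2 CPM above 5. Both lines are near 0.2 under 1000 bases. From 1000 to under 1500 bases the subunits stay at 0.18 and the other genes are at 0.10. Both are lower at greater length, with 0.01 for 6 subunits and -0.05 for 2749 other genes from 2500 to under 5000 bases.

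The subunits encoded by mitochondrial DNA did not share the direction of their nuclear partners. Of 13 such genes, 6 were positive and 7 negative, with a median log2 fold change of -0.04. Their sum was 14830, 14832 and 11457 CPM in with-peak tumors and 14008, 15199 and 14709 CPM in before-peak tumors, with with-peak replicate 3 below the other 5 tumors. The number of positive genes and the median mix genes of very unequal CPM. In any tumor mt-Co2, mt-Co3, mt-Atp6, mt-Nd3, mt-Nd4l and mt-Atp8 had at most 43.8 CPM, and mt-Co1 had at least 5168 CPM. Whether such low counts reflect low transcript levels or reads that were not counted was not tested. Outside these genes of low count, mt-Nd5 and mt-Nd6 were positive and mt-Nd1, mt-Nd2, mt-Co1, mt-Nd4 and mt-Cytb negative. The gene mt-Cytb, cytochrome b of complex III, had 2450, 2743 and 1976 CPM in with-peak tumors, against 2787, 3127 and 2946 CPM in before-peak tumors. All with-peak values are below all before-peak values (log2 fold change -0.31; edgeR adjusted p = 0.519). For mt-Nd4, a complex I subunit, the log2 fold change was -0.26 and the groups overlapped.

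The wider mitochondrial gene lists had median log2 fold changes between 0.00 and 0.09, against -0.02 over all genes tested. The 18 genes of electron carriers and entry enzymes had 11 positive members and a median of 0.09, the 39 other assembly factors 23 positive members and 0.08, the 18 import and carrier proteins of the mitochondrial membranes 12 positive members and 0.02, and the 22 genes of the TCA cycle and its entry 11 positive members and 0.00. By edgeR 0 members of these 4 lists passed the adjusted threshold. At an unadjusted p under 0.05, 2 carriers or entry enzymes (11.1% of that list) and 1 TCA gene (4.55%) were higher. Of the 39 assembly factors 1 was lower at such a p. Over all genes tested, 6.12% were higher and 3.38% lower. Cycs, cytochrome c itself, had 84.7, 99.4 and 97.7 CPM in with-peak tumors, against 79.0, 81.9 and 74.7 CPM in before-peak tumors, and the groups do not overlap (log2 fold change 0.26; edgeR adjusted p = 0.520). Pdk4, the kinase that shuts pyruvate out of the TCA cycle and is abundant in muscle and heart, had 8.56, 17.8 and 22.1 CPM in with-peak tumors, against 1.77, 2.74 and 6.0 CPM in before-peak tumors. The groups do not overlap (log2 fold change 2.20, edgeR adjusted p = 0.270). Within the with-peak tumors Pdk4 was lowest in replicate 1 and highest in replicate 3, as the median deviation of the muscle genes was (-0.21, 1.81 and 1.94). Within the before-peak tumors Pdk4 was lowest in replicate 1, which had the highest muscle gene level of that group. The part of muscle tissue in Pdk4 was not tested. The log2 fold change was 0.67 for Coq8a, a kinase-like protein of ubiquinone synthesis, 0.19 for Idh3b, a subunit of isocitrate dehydrogenase, 0.46 for the assembly factor Cox19 and -0.28 for the assembly factor Cox20. It was 0.30 for Tomm20, an import receptor, and 0.22 for Slc25a4, the ADP/ATP carrier of muscle and heart. The groups did not overlap for Idh3b, Cox20 and Slc25a4. Most exon bases of Cox20, and a smaller part of those of Coq8a, Polg and Ryr1, are shared with genes on the opposite strand, so their counts are uncertain.

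The regulators of mitochondrial biogenesis were not higher as a list. Of 17 listed genes 13 were tested, and 10 of these were negative, with a median log2 fold change of -0.09. Nrf1, a transcription factor for many respiratory genes, had 31.4, 28.4 and 42.3 CPM in with-peak tumors and 35.2, 33.3 and 38.5 CPM in before-peak tumors. Polg, the mitochondrial DNA polymerase, had 51.4, 55.9 and 57.1 CPM in with-peak tumors and 63.2, 60.4 and 70.8 CPM in before-peak tumors, without overlap (edgeR adjusted p = 0.558). Gabpa, the DNA-binding part of the ETS factor GABP, had 85.9, 85.2 and 92.6 CPM in with-peak tumors and 99.6, 94.6 and 106.6 CPM in before-peak tumors, with no overlap and an adjusted p of 0.629 by edgeR. Gabpa shares exon bases with Atp5j, a complex V member on the opposite strand, so a part of its counts is uncertain. Ppargc1a, the coactivator that drives biogenesis in muscle and brown fat, was at most 1.02 CPM in any tumor and was not tested. Letters of the kind these factors bind were common in the subunits' promoters. In RefSeq windows from 250 bases before to 50 bases after the start (GRCm38.p6), on both strands, the NRF1 form (GCGCA and GCGC with 1 base of any kind between them) was found in 26.9% of 67 windows of 62 widely used subunits, against 4.6% of all 32851 windows. The ETS form CCGGAAG was found in 23.9% against 8.86%, the E-box form CAGCTG in 7.46% against 16.3%, and TATAAA in 8.96% against 13.6%. These matches describe the letters in the windows only.

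The muscle isoforms of complex IV are set beside their widely expressed counterparts because their fold changes lay above those of all 76 widely used subunits. For 2 pairs of muscle isoform and counterpart, the promoter windows of Cox8b (chr7:140900397-140900696, minus strand), Cox8a (chr19:7217567-7217866, minus strand), Cox7a1 (chr7:30183921-30184220, plus strand) and Cox7a2 (chr9:79759804-79760103, minus strand) are printed from RefSeq (GRCm38.p6), 5′ to 3′, and that of Cox6a1 (chr5:115348909-115349208, minus strand) as an example with NRF1 forms. Capitals mark the NRF1 form, the ETS form (CTTCCGG is its reverse complement), CAGCTG and TATAAA.
Cox8b: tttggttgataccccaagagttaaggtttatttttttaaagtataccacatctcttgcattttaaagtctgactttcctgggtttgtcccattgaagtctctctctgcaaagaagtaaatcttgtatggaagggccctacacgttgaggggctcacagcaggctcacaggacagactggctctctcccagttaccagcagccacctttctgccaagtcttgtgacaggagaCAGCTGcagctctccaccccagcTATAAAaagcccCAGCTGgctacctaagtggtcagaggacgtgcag
Cox8a: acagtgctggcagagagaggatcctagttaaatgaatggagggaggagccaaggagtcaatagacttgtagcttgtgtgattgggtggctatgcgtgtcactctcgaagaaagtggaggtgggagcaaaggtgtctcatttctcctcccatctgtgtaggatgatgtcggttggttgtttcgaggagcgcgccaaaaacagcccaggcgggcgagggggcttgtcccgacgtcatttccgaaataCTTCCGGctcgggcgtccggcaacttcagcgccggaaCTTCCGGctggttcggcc
Cox7a1: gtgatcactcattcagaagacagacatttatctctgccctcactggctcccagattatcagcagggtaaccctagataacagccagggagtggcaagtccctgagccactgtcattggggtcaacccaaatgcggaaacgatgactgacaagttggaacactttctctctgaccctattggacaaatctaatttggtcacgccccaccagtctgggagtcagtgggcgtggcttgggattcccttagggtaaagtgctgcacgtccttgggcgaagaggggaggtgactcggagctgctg
Cox7a2: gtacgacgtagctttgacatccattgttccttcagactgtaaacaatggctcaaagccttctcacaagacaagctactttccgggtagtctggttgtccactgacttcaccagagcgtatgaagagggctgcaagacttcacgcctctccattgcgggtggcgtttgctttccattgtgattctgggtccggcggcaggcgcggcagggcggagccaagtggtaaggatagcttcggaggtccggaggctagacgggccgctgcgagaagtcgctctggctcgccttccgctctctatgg
Cox6a1: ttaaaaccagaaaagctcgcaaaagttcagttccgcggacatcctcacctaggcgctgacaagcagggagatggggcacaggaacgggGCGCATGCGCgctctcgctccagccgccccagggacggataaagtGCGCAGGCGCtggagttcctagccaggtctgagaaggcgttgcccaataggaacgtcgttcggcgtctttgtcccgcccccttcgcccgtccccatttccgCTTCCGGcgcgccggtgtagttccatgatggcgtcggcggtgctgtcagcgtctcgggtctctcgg
The Cox8b window holds 2 CAGCTG and 1 TATAAA and no NRF1 or ETS form. The Cox8a window holds 2 ETS forms, so this pair differs in these letters. The Cox7a1 and Cox7a2 windows both hold none of the 4 and do not differ in them. The Cox6a1 window holds 2 NRF1 forms and 1 ETS form.

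All 3 muscle isoforms had their highest value in with-peak replicate 2. Cox6a2 (ENSMUSG00000030785, chromosome 7, 128205435 to 128206387, minus strand, GRCm38) had 2.31, 15.3 and 9.12 CPM in with-peak tumors, against 2.09, 1.02 and 2.17 CPM in before-peak tumors, from 33, 195 and 94 counts against 26, 13 and 26 counts. With-peak replicates 2 and 3 stand far above the other 4 tumors, and with-peak replicate 1 is just above the before-peak range. The log2 fold change was 2.33 ± 0.67 (SE), with an adjusted p of 0.381 by edgeR and 0.00825 by DESeq2. Cox6a2 shares 10.3% of its exon bases with Itgad on the opposite strand, which had at most 0.583 CPM. Cox8b (ENSMUSG00000025488, chromosome 7, 140898945 to 140900446, minus strand) had 3.09, 30.4 and 9.89 CPM in with-peak tumors, against 4.33, 1.02 and 7.58 CPM in before-peak tumors. Here the groups overlap, since before-peak replicates 1 and 3 exceed with-peak replicate 1 (log2 fold change 1.75 ± 1.03, SE; edgeR adjusted p = 0.667). Cox7a1 (ENSMUSG00000074218, chromosome 7, 30184144 to 30186078, plus strand) had 1.54, 6.03 and 4.07 CPM in with-peak tumors, against 3.53, 1.17 and 1.75 CPM in before-peak tumors, again with overlap (log2 fold change 0.84 ± 0.58, SE; edgeR adjusted p = 0.693). With with-peak replicate 1 alone against the before-peak tumors, Cox6a2 was at 0.39, Cox7a1 at -0.48 and Cox8b at -0.49 on the log2 scale. Without with-peak replicate 2 the log2 fold change was 1.69 for Cox6a2, 0.37 for Cox7a1 and 0.58 for Cox8b, and without with-peak replicate 3 it was 2.32 for Cox6a2, 0.82 for Cox7a1 and 1.96 for Cox8b. Cox7a1 was at 1.40 without before-peak replicate 1 and at 0.55 without before-peak replicate 2.

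The counterparts differed little. Cox6a1 had 199.3, 263.5 and 210.9 CPM in with-peak tumors and 246.6, 179.5 and 220.5 CPM in before-peak tumors, Cox7a2 had 93.8, 137.1 and 92.7 CPM in with-peak tumors and 111.5, 91.8 and 86.8 CPM in before-peak tumors, and Cox8a had 204.1, 276.3 and 243.5 CPM in with-peak tumors and 250.1, 227.1 and 217.0 CPM in before-peak tumors. In each the groups overlap. As a share of the counts of both isoforms, Cox6a2 made up 1.15%, 5.48% and 4.14% in with-peak tumors, against 0.839%, 0.564% and 0.973% in before-peak tumors. Cox7a1 made up 1.62%, 4.21% and 4.21% in with-peak tumors, against 3.07%, 1.26% and 1.98% in before-peak tumors. Cox8b made up 1.49%, 9.91% and 3.91% in with-peak tumors, against 1.70%, 0.446% and 3.38% in before-peak tumors. The widely expressed isoform thus held over 90% of the pair in every tumor. On the log2 scale, with 0.5 CPM added, the ratio of Cox6a2 to Cox6a1 differed by 1.72 between the groups (two-sided exact permutation test, p = 0.1, adjusted p = 0.3 over 3 pairs), that of Cox7a1 to Cox7a2 by 0.53 (exact p = 0.3, adjusted 0.3) and that of Cox8b to Cox8a by 1.37 (exact p = 0.3, adjusted 0.3). Leaving out 1 tumor in turn gave a difference of 1.31 to 2.35 for Cox6a2, of 0.28 (without before-peak replicate 2) to 0.91 (without with-peak replicate 1) for Cox7a1, and of 0.70 (without with-peak replicate 2) to 2.03 for Cox8b. The Cox7a1 difference was 0.35 and 0.32 without with-peak replicates 2 and 3, and that of Cox8b was 0.71 without before-peak replicate 2. With 3 against 3 tumors the smallest p this test can give is 0.1.

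**Figure D4:**
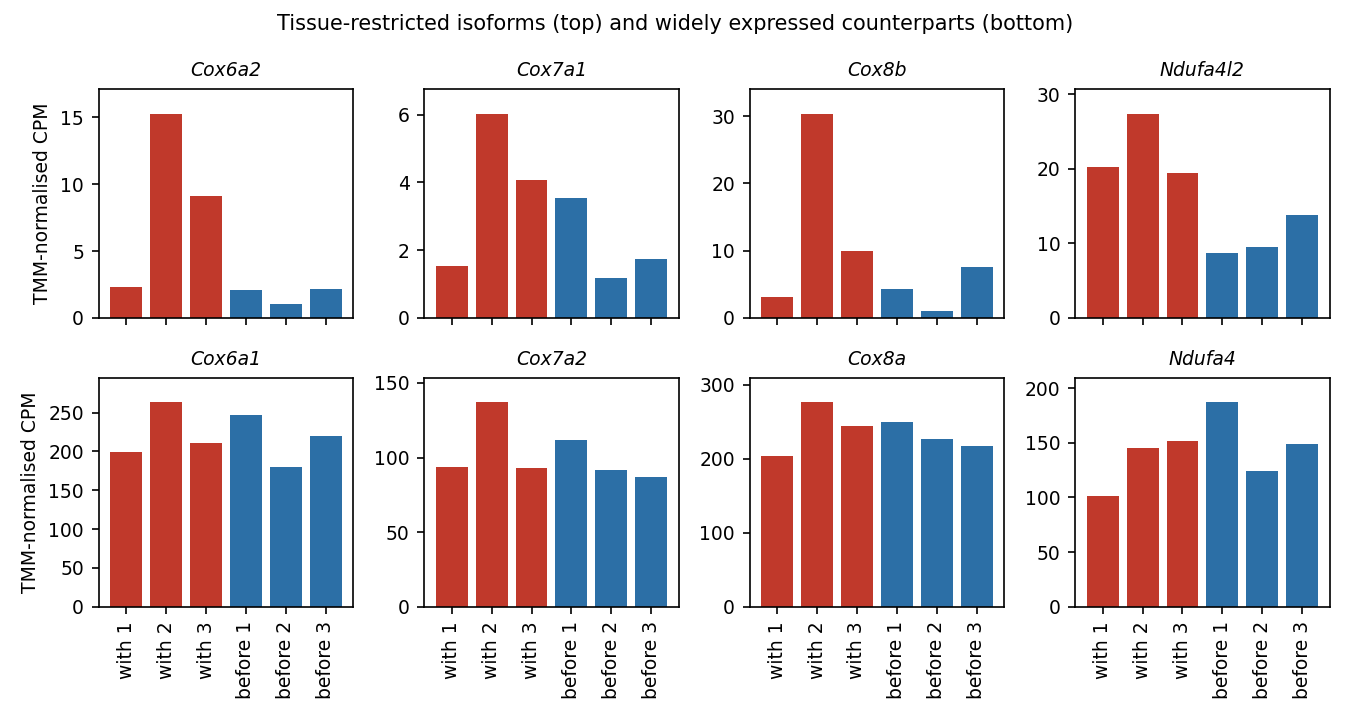
TMM-normalised CPM of the tissue-restricted isoforms (top) and their widely expressed counterparts (bottom) in each tumor, with 1 bar per tumor, with-peak tumors left of before-peak tumors and a scale of its own in each panel. Cox6a2 reaches 15.3 CPM and Cox8b 30.4 CPM in with-peak replicate 2, while Cox6a1 and Cox8a stay between 179.5 and 276.3 CPM in all 6 tumors.

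Skeletal muscle genes were high in with-peak replicates 2 and 3, as Cox6a2 was. All 28 genes of the muscle list had a positive log2 fold change (median 2.37), 14 with an unadjusted p under 0.05 in that direction (6.12% of all genes), and their median deviation by tumor was -0.21, 1.81 and 1.94 in with-peak tumors, against 0.05, -1.70 and -1.96 in before-peak tumors. Acta1, skeletal muscle actin, had 79.6, 403.5 and 436.9 CPM in with-peak tumors, against 52.2, 7.75 and 2.5 CPM in before-peak tumors. The muscle genes with the smallest p, Ryr1 (calcium release channel) and Myh7 (slow myosin), had log2 fold changes of 3.00 and 1.93 with adjusted p of 0.203 and 0.250 by edgeR. In before-peak replicate 3, the lowest tumor in muscle genes, Cox8b had 91 counts, against 44 in with-peak replicate 1. For Cox7a1 these 2 tumors had 21 and 22 counts, too close to order. Cox7a1 was highest in with-peak replicates 2 and 3 and before-peak replicate 1. These tumors also had the highest muscle gene sums (2598, 2538 and 927 CPM). Within the before-peak tumors Cox6a2 did not follow the list, with 2.09, 1.02 and 2.17 CPM. Of the 9 heart genes, 4 passed the filter and their median was -0.16, with Tnnt2 at -0.54 and Nppb at -0.28. White adipocyte genes had median deviations of -0.95, 0.82 and 0.08 in with-peak tumors and 0.07, -0.81 and 0.59 in before-peak tumors. Their level summed to between 875 and 2986 CPM in with-peak tumors and between 861 and 2023 CPM in before-peak tumors. Adipoq, an adipocyte hormone, had 32.8, 155.5 and 75.3 CPM in with-peak tumors and 79.1, 39.5 and 100.6 CPM in before-peak tumors. Cox8b, which mouse brown fat also uses, had its 3 highest values in with-peak replicates 2 and 3 and before-peak replicate 3. The adipocyte sums were highest in the same tumors, at 2986, 1524 and 2023 CPM in that order. Before-peak replicate 1 came next, at 1426 CPM. Adipoq was highest in with-peak replicate 2 and before-peak replicates 3 and 1. Of the adipocyte genes with the smallest p, Lep was at -1.05 and Fabp4 at 0.56 (log2 fold change), both with overlapping groups. Ucp1, the defining gene of brown fat, was at most 0.627 CPM and was not tested. Of 5 brown fat genes tested, 2 were positive and 3 negative, with a median log2 fold change of -0.02. The 2 with the smallest p, Fabp3, which muscle also expresses, and Dio2, were at 2.78 and 0.41 (log2 fold change), with overlapping groups. The part of muscle or fat tissue in these values was not tested.

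**Figure D5:**
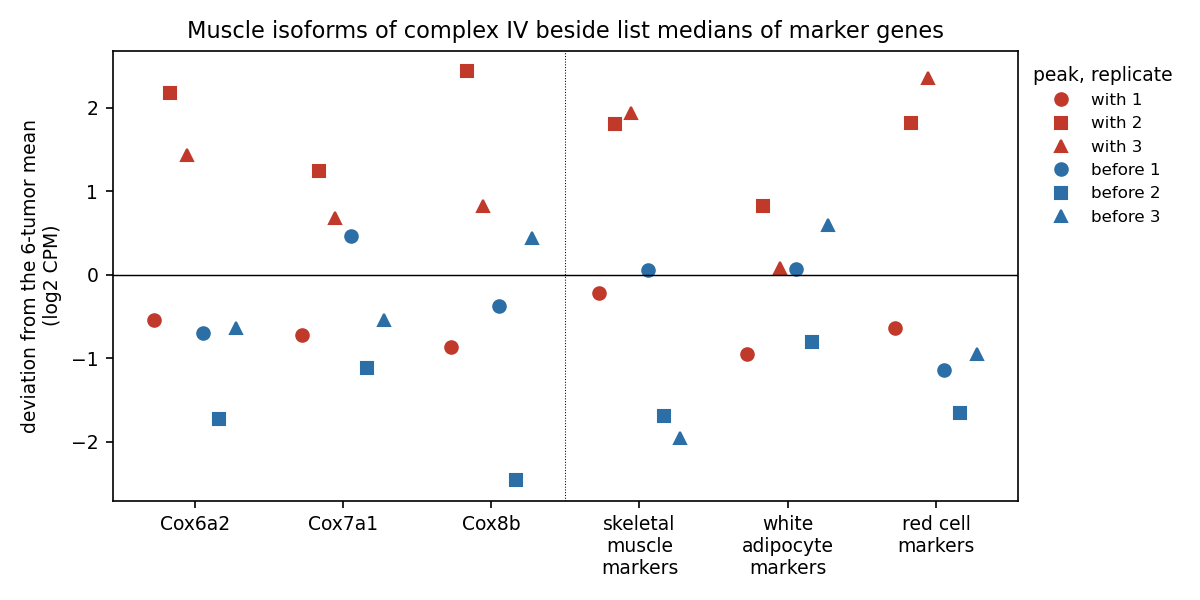
Deviation of each muscle isoform from its mean over the 6 tumors (log2 CPM), beside the median deviation of marker gene lists, with 1 mark per tumor and with-peak tumors left of before-peak tumors. The muscle list and Cox6a2 are high in with-peak replicates 2 and 3, where the list stands at 1.81 and 1.94 and the red cell list at 1.82 and 2.36, while the adipocyte list is high in with-peak replicate 2 (0.82) and before-peak replicate 3 (0.59).

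The other isoforms and relatives of complex IV subunits did not share a pattern. Ndufa4l2 (ENSMUSG00000040280, chromosome 10, 127514967 to 127517154, plus strand, GRCm38), a relative of Ndufa4 that hypoxia induces through HIF1 and that pericytes express, had 20.2, 27.4 and 19.5 CPM in with-peak tumors, against 8.75, 9.55 and 13.8 CPM in before-peak tumors. The groups are clearly apart, and with-peak replicate 1, which is low in muscle genes, is as high as replicate 3. The means were 22.4 ± 4.38 CPM in with-peak tumors and 10.7 ± 2.73 CPM in before-peak tumors (SD, n = 3 each), a 2.09-fold difference (log2 fold change 1.06 ± 0.24, SE), with an adjusted p of 0.197 by edgeR and 0.00875 by DESeq2. Leaving out any 1 tumor kept the log2 fold change between 0.89 and 1.29. Of the counts of Ndufa4l2 and Ndufa4 together, Ndufa4l2 made up 16.7%, 15.9% and 11.4% in with-peak tumors, against 4.47%, 7.12% and 8.49% in before-peak tumors. Ndufa4l2 shares 2.92% of its exon bases with Shmt2 on the opposite strand, whose log2 fold change was -0.13.

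Gene lists were set beside Ndufa4l2. The macrophage genes, with median deviations of 0.24, 0.67 and 0.22 in with-peak tumors and -0.15, -0.48 and -0.45 in before-peak tumors, were high in the same 3 tumors as Ndufa4l2, and their part in its values was not tested. The hypoxia-induced and the pericyte list, both chosen after values had been seen, had medians near that of all genes. Of 10 hypoxia-induced genes 3 were positive, with a median log2 fold change of -0.07, and Car9, a carbonic anhydrase of hypoxic tumor cells, had 126.0, 80.0 and 103.1 CPM in with-peak tumors and 115.8, 129.8 and 100.5 CPM in before-peak tumors. Of 7 pericyte genes 5 were positive, with a median of 0.06, and their median deviation was -0.18, 0.75 and -0.35 in with-peak tumors and -0.34, -0.04 and 0.10 in before-peak tumors. Rgs5, a pericyte marker, had 57.5, 107.2 and 43.0 CPM in with-peak tumors and 41.3, 42.2 and 51.7 CPM in before-peak tumors, high in with-peak replicate 2 alone. The log2 fold changes were 0.67 for Higd1b of the pericyte list, and 0.18 for Pgk1 and -0.26 for Slc2a1 of the hypoxia list, all with overlapping groups.

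Cox7a2l, a relative of Cox7a2 that joins complexes III and IV into supercomplexes, had 262.7, 204.3 and 267.6 CPM in with-peak tumors and 226.8, 195.7 and 187.9 CPM in before-peak tumors. Only with-peak replicate 2 falls inside the before-peak range (log2 fold change 0.27 ± 0.14, SE; edgeR adjusted p = 0.590). Cox4i2, the isoform of Cox4i1 best known from lung, had 4.00, 5.72 and 1.65 CPM in with-peak tumors and 2.25, 3.52 and 1.67 CPM in before-peak tumors, with full overlap (log2 fold change 0.62 ± 0.50, SE). Cox6b2, the testis isoform of Cox6b1, had between 1 and 15 counts per tumor and overlapping groups, too few to measure a difference.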

How the data were processed

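Per the labels' protocols, snap-frozen tumor was lysed in Trizol, its RNA was enriched on oligo(dT), and the libraries were read from both ends without keeping the strand. FastQC, STAR and mm10 are named in the submitters' processing notes, with no versions; which counter and annotation made the table is not given in the sources used here. The authors deposited unnormalized integer counts, 1 column per tumor. Of 23508 genes, 23479 matched GENCODE M21, from which symbols, coordinates and overlaps were taken.

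From the counts, edgeR 4.0.16 in R 4.3.3 was used with TMM scaling, filterByExpr (minimum count 10, minimum total count 15), and its robust quasi-likelihood test of with-peak against before-peak tumors, two-sided, without covariates and with Benjamini-Hochberg adjustment over 16755 genes at 0.05. CPM values are TMM-normalised and carry counting error, which is large near 1 CPM. DESeq2 1.42.0 was an alternative, and so were limma-voom (limma 3.58.1), other scalings and filters, a replicate block and leaving out tumors. On simulated counts, DESeq2 made false calls at a higher rate than edgeR, which bears on genes that DESeq2 alone called. It also found more of the changes that had been put in. Levels per length divide CPM by the length of the principal transcript, the longest where a gene has several. Within groups, chi-square per degree of freedom between tumors was at least 17.1, so none was a duplicate.

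The members, lists and tests were chosen with earlier results of these data known. Named were all isoforms with their counterparts, all complex II genes, the 2 smallest p-values in each direction per remaining class, the 2 highest levels per length per complex, and the 2 smallest p-values per surrounding list; further genes (among them Krt8, Acta1, Nrf1, Ppargc1a, Adipoq, Ucp1 and Car9) were chosen after their values were seen. No SE is given for genes outside the member set. A gene that the rule takes is not reported here.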

Additional observations from a re-analysis of the deposited data

How the results depend on the processing

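With 3 tumors a group, differences near 1.2-fold are about the size of their SE doubled, and low members such as the muscle isoforms rest on few counts. DESeq2 called 240 genes higher and 23 lower, among them 2 members (Cox6a2 and Ndufa4l2), where edgeR called 0 of each; without the filter on low counts edgeR called 26 higher and 3 lower. The other scalings, the stricter filter and limma-voom called 0. With library size alone, 5 members had an unadjusted p under 0.05 in the higher direction, against 17. For this and the settings below, the share of all genes at such a p is not given. These counts of members thus lack a background. The replicate numbers do not pair the tumors (correlations of deviations between same-numbered tumors -0.06, -0.10 and 0.03); with the number as a replicate block, 1 gene was called higher and 10 members had such a p. At least 1 CPM in 3 libraries put the median of the other complex IV isoforms at 0.62. With-peak replicate 1 alone, assumed to vary like the other tumors, gave 2 members higher and 4 lower at an unadjusted p under 0.05, and median log2 fold changes of 0.012 (widely used subunits), 0.044 (complex I), -0.095 (III), -0.050 (IV), 0.021 (V) and -0.48 (muscle isoforms). Leaving out 1 tumor in turn gave 0 to 17 genes called higher and 5 to 23 members higher at an unadjusted p under 0.05. The muscle isoform median was then 0.58 to 2.43, lowest without with-peak replicate 2.

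Of 40 named genes under 15 alternatives, 26 never reversed, and 568 of 599 values kept direction and side of the threshold. With with-peak replicate 1 alone the reversed values were -0.048 for Ndufaf5, -0.22 for Uqcr11, -0.12 for Cox6a1, -0.022 for Cox6b1, -0.050 for Cox7a2, -0.19 for Cox8a, -0.48 for Cox7a1, -0.49 for Cox8b, -0.10 for Sdha and -0.10 for Atp5b. Library size alone gave -0.054 for Sdha, -0.036 for Sdhc and -0.054 for Atp5b, and upper quartile scaling -0.0027 for Sdha and -0.0026 for Atp5b. Leaving out 1 tumor in turn spanned -0.43 to 0.020 for Ndufaf3, -0.28 to 0.032 for Ndufaf8, -0.062 to 0.080 for Sdha, -0.051 to 0.072 for Sdhc, -0.10 to 0.073 for Uqcrc1, -0.074 to 0.17 for Cox6a1, -0.055 to 0.27 for Cox7a2, -0.050 to 0.17 for Cox8a and -0.071 to 0.055 for Atp5b. The cause of these reversals was not tested.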

Other observations

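Macrophage and red cell genes had larger median fold changes than the widely used respiratory subunits. All 14 macrophage genes had a positive log2 fold change (median 0.77), 12 with an unadjusted p under 0.05 in that direction (6.12% of all genes). Arg1, the arginase of macrophages, had 589.1, 653.6 and 609.8 CPM in with-peak tumors, against 255.7, 393.3 and 316.8 CPM in before-peak tumors (log2 fold change 0.94; edgeR adjusted p = 0.098), and Gpnmb, a lysosomal glycoprotein, was at 2.62 (edgeR adjusted p = 0.153). Of 12 carcinoma genes 11 were negative (median -0.21), with Krt5 at -1.57 and Cdh1 at -0.49. Red cell genes, 6 tested and all positive, had median deviations of -0.64, 1.82 and 2.36 in with-peak tumors and -1.14, -1.65 and -0.95 in before-peak tumors, so that with-peak replicates 2 and 3 were high in them as well as in muscle genes. Of these, Alas2, the first enzyme of heme synthesis in red cell precursors, was at 2.94 (log2 fold change), without overlap between the groups; Alas2 and Krt5 share exon bases with genes on the opposite strand. The part of these differences in cell makeup in the subunit values was not tested.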
